A study of Mus musculus with 4 samples.

Results

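The growth factor receptor Kit and 9 receptor chains for myeloid and lymphoid cytokines (Flt3, Csf1r, Csf2ra, Csf2rb, Csf2rb2, Csf3r, Il3ra, Il6ra and Il7r) were followed in c-Kit+ leukemic cells with and without Suv39h1 overexpression. The genes were taken by symbol, through their Ensembl identifiers, from a table of 23552 genes. All 10 were found, and all 10 were among the 13736 genes with enough signal to be tested. The cells came from the bone marrow of moribund C57BL/6 mice with acute myeloid leukemia (AML) driven by the MLL-AF9 fusion gene, called MA9 cells. The control group (replicates 3 and 4) carried an eGFP vector, and the SUV-OE group (replicates 2 and 3) carried a vector for both Suv39h1, an H3K9 methyltransferase, and eGFP. Every library therefore shared MLL-AF9, the eGFP reporter, the C57BL/6 strain and enrichment for surface c-Kit, the protein made by one of the genes described here. The virus was given to leukemic cells before transplantation into irradiated mice, so both groups were grafts of transduced leukemia and not primary disease. The labels do not say whether the 2 libraries of a group came from separate mice, and the p-values measure only the spread between these libraries.

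These receptors carry signals from soluble or membrane-bound growth factors into blood-forming cells. Kit, Flt3 and Csf1r are receptor tyrosine kinases, which bind stem cell factor, FLT3 ligand and macrophage colony-stimulating factor and act from stem and progenitor cells through to macrophages. The others have no kinase of their own and signal through JAK kinases and STAT factors. Among these, the receptors for IL-3 and GM-CSF pair a ligand-specific alpha chain with a shared beta chain, Csf3r acts as a homodimer in granulocyte development, Il6ra pairs with gp130, and Il7r pairs with the common gamma chain in lymphoid cells.

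None of the 10 receptor genes passed the threshold of a limma adjusted p-value under 0.05. The largest differences in measured level were a higher Il7r, Csf3r and Csf1r and a lower Flt3 in SUV-OE cells, at 4.38, 1.78, 1.59 and 0.535 times the control FPKM. Kit and Il3ra were 1.36 and 1.30 times the control level. Csf2ra, Csf2rb, Csf2rb2 and Il6ra differed by less than the spread between libraries.

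Levels are given as FPKM, the fragments per kilobase of exon per unit of mapped fragments, in the form that the authors deposited. Differences were tested on the log2(FPKM + 1) scale, which understates the fold change of low genes, and p-values were adjusted over all 13736 genes tested. Reads recovered from the FPKM values came to 16843197 to 19721774 per library. Suv39h1 itself was measured at 12.4 in both control libraries, against 75.3 and 81.2 in SUV-OE replicates 2 and 3, a log2 fold change of 2.56 with a standard error of 0.11 (limma adjusted p = 0.00866). The libraries of a group also differed from each other in content. The summed FPKM of 14 neutrophil markers was 1207 and 2914 in control replicates 3 and 4, and 7192 and 8728 in SUV-OE replicates 2 and 3. Control replicate 3 stood apart in its erythroid markers, which summed to 21.5 there and to 143, 147 and 119 in the other libraries. All 10 tested erythroid markers had a positive log2 fold change, and 5 were higher in both SUV-OE libraries, against 25.4% of tested genes. Limma passed 2 of them after adjustment, Car1 and Car2, against 1.29% of tested genes. The 9 megakaryocyte markers summed to 6.92 and 13.2 in control against 25.1 and 29.4 in SUV-OE. In bulk RNA, fewer cells of a type and less RNA per cell cannot be told apart.

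In the comparison of SUV-OE with control, each SUV-OE library exceeded each control library for 5 receptor genes, Kit, Csf1r, Csf3r, Il3ra and Il7r, where 25.4% of all tested genes did so. Both lay below for 1 gene, Flt3, against 28.4% of tested genes, and for 4 genes the groups overlapped. By mean, 7 of the 10 genes were higher in SUV-OE, where 47% of tested genes were. Before adjustment, the 6 genes whose groups did not overlap also had a limma p-value under 0.05, 5 of them higher and 1 lower, where 20.7% of tested genes had one, 10.3% higher and 10.4% lower. After adjustment by limma, 0 of the 10 passed 0.05, where 1.29% of tested genes passed, and so none was among the 1.22% called differentially expressed, which also needs a log2 fold change of 1 or more in size. The adjusted p-values ran from 0.0784 for Csf3r to 0.981 for Csf2rb. The median log2 fold change over the 10 genes was 0.23, beside -0.02 over all genes tested, and the median absolute log2 fold change was 0.40, beside 0.22. A count-based fit, limma-voom on the recovered reads, passed 3 of the 10 genes at an adjusted p-value of 0.05, Csf1r, Csf3r and Il7r, where it passed 7.12% of 14155 genes. All 3 were higher in SUV-OE. Of these, Il7r also had a log2 fold change of 1 or more in size, as did 5.31% of the genes, 616 of them higher and 135 lower. The median log2 fold change over all genes was 0.073 by limma-voom, beside -0.02 by limma. After quantile normalization of the FPKM, limma passed 1 of the 10 genes, Csf3r, against 1.23% of genes. When any one library was left out, the log2 fold change ran from 0.34 to 0.51 for Kit, 0.44 to 0.72 for Csf1r, 0.68 to 0.93 for Csf3r, 0.27 to 0.47 for Il3ra, 0.76 to 1.26 for Il7r and -1.04 to -0.57 for Flt3. The groups of these 6 genes do not overlap, so leaving out a library could not turn their direction.

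**Figure D1:**
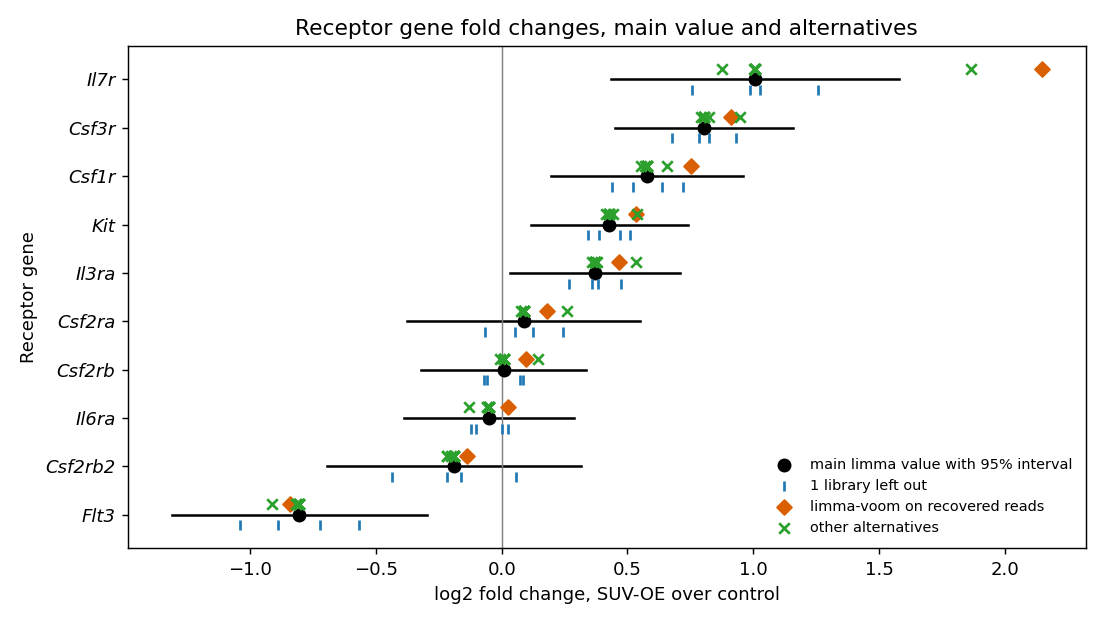
The log2 fold change of log2(FPKM + 1), SUV-OE over control, is plotted for each of the 10 receptor genes as a black point with its 95% interval from limma. Ticks below give the values with 1 library left out, diamonds limma-voom on recovered reads, and crosses the other alternatives. Il7r and Csf3r lie farthest to the higher side at 1.01 and 0.80, Flt3 is the only gene with an interval wholly below 0, and the intervals of Csf2ra, Csf2rb, Csf2rb2 and Il6ra span 0.

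The 10 genes covered a 170-fold range of mean FPKM over the 4 libraries, from 204 for Csf2ra to 1.20 for Il7r. Between them the order by this pooled mean ran Il3ra (49.0), Csf3r (41.1), Csf2rb (37.8), Kit (23.4), Flt3 (7.44), Csf1r (6.89), Csf2rb2 (6.66) and Il6ra (4.09). Over all 4 libraries the ranges of Il3ra and Csf3r, Csf3r and Csf2rb, Flt3 and Csf1r, and Csf1r and Csf2rb2 overlapped, but the order of these neighbours depended on the group. Csf3r was below Csf2rb in both control libraries (29.2 and 30.0 against 39.5 and 35.9) and above it in both SUV-OE libraries (48.0 and 57.4 against 40.0 and 35.9). Csf1r was below Flt3 and Csf2rb2 in both control libraries and above both of them in the SUV-OE libraries. Il3ra was above Csf3r in both control libraries, while in SUV-OE their ranges overlapped, as did those of Flt3 and Csf2rb2. Csf2ra lay above Il3ra, Csf2rb above Kit, Kit above Flt3, Csf2rb2 above Il6ra and Il6ra above Il7r in every library. Csf2ra alone made up 57.9% and 53.5% of the summed receptor FPKM in the control libraries and 51.2% and 51.4% in the SUV-OE libraries. The sum itself was 378 and 330 in control against 419 and 397 in SUV-OE. MA9 cells of both groups thus carried far more transcript per length for the alpha chain of the GM-CSF receptor than for any of the tyrosine kinases.

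**Figure D2:**
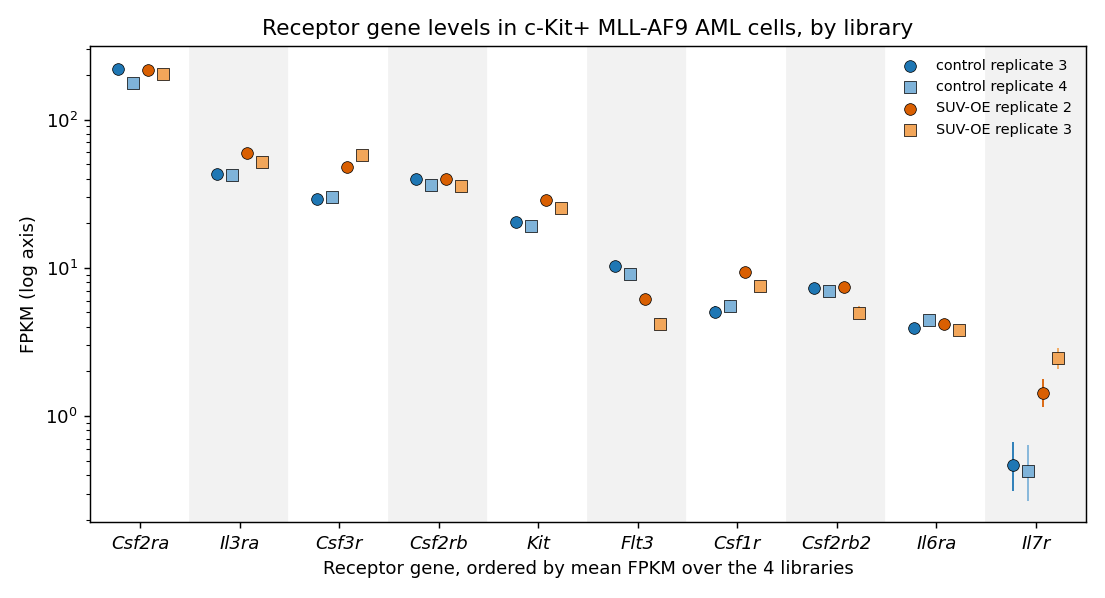
The FPKM (log axis) of the 10 receptor genes is plotted for each library, with control and SUV-OE libraries as separate symbols and the genes ordered by their mean over the 4 libraries. Vertical lines are exact 95% Poisson intervals, which cover counting error only and are hidden by the symbols for most genes. The genes span from 0.425 for Il7r in control replicate 4 to 219 for Csf2ra in control replicate 3, and the SUV-OE points stand clear of the control points for Il3ra, Csf3r, Kit, Flt3, Csf1r and Il7r.

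Of the receptor tyrosine kinases, Kit is the receptor for stem cell factor and the marker by which these cells were enriched. The gene (ENSMUSG00000005672) lies on the forward strand of mm10 at chr5:75574916-75656722. Its FPKM was 20.4 and 19.2 in control replicates 3 and 4 and 28.6 and 25.4 in SUV-OE replicates 2 and 3, from 2888 to 4524 recovered reads. Both SUV-OE libraries were above both control libraries, with means of 27.0 ± 2.27 against 19.8 ± 0.830 (SD, n = 2 each). The log2 fold change was 0.43 (standard error 0.12, 95% interval 0.12 to 0.74, limma adjusted p = 0.16). Because every sample was enriched on c-Kit protein, this value describes Kit transcript within cells already chosen for Kit. The genes with the profile closest to that of Kit across the 4 libraries, by Euclidean distance of centred log2(FPKM + 1), were Hip1 at 0.0175, Acad12 at 0.0228 and Hlcs at 0.0248. Hip1 was measured at 2.70 and 2.52 in control against 4.08 and 3.58 in SUV-OE. With 4 libraries, 596 genes lay within a distance of 0.2 of Kit, so closeness of this kind was common.

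Flt3, the receptor for FLT3 ligand and a gene often mutated in AML, differed in the direction opposite to Kit. The gene (ENSMUSG00000042817) lies on the reverse strand at chr5:147330741-147400489. Its FPKM was 10.3 and 9.08 in control replicates 3 and 4, and 6.20 and 4.18 in SUV-OE replicates 2 and 3. The groups did not overlap, although the SUV-OE libraries also differed from each other. The means were 9.69 ± 0.868 in control and 5.19 ± 1.43 in SUV-OE (SD, n = 2 each), so that the control level was 1.87 times that of SUV-OE. On the log2 scale the difference was -0.81 (standard error 0.19, 95% interval -1.31 to -0.30, limma adjusted p = 0.133). An absolute difference this large was seen in 6.41% of the genes tested. Without SUV-OE replicate 3, the library with the lowest Flt3, the difference was -0.57, and without SUV-OE replicate 2 it was -1.04.

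Kit and Flt3 were also compared within each library, where differences in depth cancel. The FPKM of Kit was 1.98 and 2.12 times that of Flt3 in the control libraries and 4.62 and 6.08 times in the SUV-OE libraries. With 1 added to each FPKM, the log2 ratio was 0.92 and 1.0 in control against 2.04 and 2.35 in SUV-OE. The group means differed by 1.23 (exact two-sided permutation p = 0.333). That is the smallest p-value that 2 libraries against 2 can give. Of the 7 receptor pairs compared in this way, Kit and Flt3 had the largest difference at a pseudocount of 1, and none could reach significance by this test.

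The start regions of this pair are shown because their transcripts differed in opposite directions. Each is the 250 bases before the RefSeq start in GRCm38.p6, the assembly also called mm10, written along the gene's own strand. Capitals mark matches to the ETS core (GGAA, or TTCC on the other strand) and to the RUNX motifs TGTGGT and TGCGGT (or their reverse complements). Kit is at chr5:75574737-75574986 on the forward strand, and Flt3 at chr5:147400490-147400739 on the reverse strand. The Kit window overlaps the gene span given above in part, and the Flt3 window does not overlap its own.

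Kit: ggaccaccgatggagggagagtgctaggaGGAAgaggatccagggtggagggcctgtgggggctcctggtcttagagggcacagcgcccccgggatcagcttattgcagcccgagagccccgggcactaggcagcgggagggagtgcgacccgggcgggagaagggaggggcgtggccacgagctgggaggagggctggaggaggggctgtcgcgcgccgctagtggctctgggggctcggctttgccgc

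Flt3: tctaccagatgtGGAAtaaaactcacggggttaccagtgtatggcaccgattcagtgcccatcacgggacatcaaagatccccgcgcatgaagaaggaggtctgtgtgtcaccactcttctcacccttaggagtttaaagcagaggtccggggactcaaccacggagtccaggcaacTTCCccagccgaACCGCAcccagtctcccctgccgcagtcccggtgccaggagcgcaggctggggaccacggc

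The Kit window held 1 ETS core and 17 CpG pairs, and the Flt3 window held 2 ETS cores, 1 RUNX motif and 13 CpG pairs. Over the 32851 windows of the same length in the table, 93.4% held an ETS core with a median of 3, 18.6% held a RUNX motif, and the median number of CpG pairs was 6. Such short letters are frequent, and a match says nothing about binding.

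Csf1r, the receptor for macrophage colony-stimulating factor and IL-34 and a marker of the monocyte lineage, was the third tyrosine kinase. The gene (ENSMUSG00000024621) lies on the forward strand of chromosome 18, 61100598 to 61132149. Its FPKM was 5.06 and 5.57 in control replicates 3 and 4 and 9.39 and 7.55 in SUV-OE replicates 2 and 3. Both SUV-OE libraries were above both control libraries, at 8.47 ± 1.30 against 5.32 ± 0.358 (SD, n = 2 each), a ratio of 1.59. The log2 fold change was 0.58 (standard error 0.15, 95% interval 0.20 to 0.96, limma adjusted p = 0.141). The same gene passed with the recovered reads, at a log2 fold change of 0.75 (limma-voom adjusted p = 0.0489). Among the 16 monocyte and macrophage markers, which include Csf1r, 14 were tested and 10 were higher in both SUV-OE libraries, but none reached a limma adjusted p-value under 0.05. Without adjustment 8 did, and limma-voom passed 7 of the 16 after adjustment. The summed FPKM of these markers without Csf1r was 430 and 701 in control against 429 and 468 in SUV-OE, so that the groups overlapped. Most of that sum was 1 gene, Ly6c2, at 281 and 545 in control against 229 and 269 in SUV-OE. Without Ly6c2 and Csf1r the markers summed to 149 and 156 in control and to 200 in each SUV-OE library, above both control libraries. Ly6c2 was singled out after its values were seen, as were the most abundant genes of the lists below, and the part of these markers in the Csf1r difference was not tested.

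The receptors for GM-CSF and IL-3 share the beta chain encoded by Csf2rb, and in the mouse a close copy, Csf2rb2, encodes a beta chain that works with the IL-3 receptor. Csf2ra (ENSMUSG00000059326, chr19:61223957-61228429, reverse strand), the alpha chain for GM-CSF, was among the most abundant transcripts of the cells. Its FPKM was 219 and 177 in control replicates 3 and 4 and 215 and 204 in SUV-OE replicates 2 and 3. The SUV-OE values lay inside the range of the control values. The means were 198 ± 29.9 and 209 ± 7.71 (SD, n = 2 each), and the log2 fold change was 0.09 (standard error 0.18, 95% interval -0.37 to 0.55, limma adjusted p = 0.808). Leaving out control replicate 4 turned the direction, to -0.07.

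Csf2rb (ENSMUSG00000071713, chr15:78325752-78353847, forward strand) had an FPKM of 39.5 and 35.9 in control replicates 3 and 4 and of 40.0 and 35.9 in SUV-OE replicates 2 and 3. Its groups overlapped almost fully. The log2 fold change was 0.01 (standard error 0.13, 95% interval -0.32 to 0.33, limma adjusted p = 0.981), an interval that leaves out changes of the size seen for Csf3r. Csf2rb2 (ENSMUSG00000071714, chr15:78282507-78305721, reverse strand) was measured at 7.26 and 6.95 in control against 7.43 and 4.99 in SUV-OE replicates 2 and 3. Here the lowest and the highest library both belonged to SUV-OE. The fitted log2 fold change was -0.19 (standard error 0.19, 95% interval -0.69 to 0.31, limma adjusted p = 0.619), and 0.06 without SUV-OE replicate 3.

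Reads of Csf2rb and Csf2rb2 can be hard to assign, because the coding sequences matched at 2505 of 2631 aligned positions, or 95.2%, in GENCODE M21. Of all 50-base windows of the Csf2rb coding sequence, 26.0% were found exactly in Csf2rb2, and of 150-base windows 6.49% were. The longest stretch shared without a difference was 242 bases, at chr15:78348577-78348818 in Csf2rb. How the authors' counting treated such reads was not stated, so the split between these genes is uncertain. Summing the FPKM of both genes gave a log2 fold change of -0.02 (limma adjusted p = 0.935). The 60 bases at which the coding sequences differed most are shown because they are where reads can best tell the genes apart. Capitals mark the 13 bases that differ, and each is written along its own gene, at chr15:78338893-78338952 on the forward strand for Csf2rb and chr15:78294379-78294438 on the reverse strand for Csf2rb2.

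Csf2rb: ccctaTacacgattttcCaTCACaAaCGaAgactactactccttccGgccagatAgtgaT

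Csf2rb2: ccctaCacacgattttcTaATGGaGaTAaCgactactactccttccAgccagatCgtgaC

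Il3ra (ENSMUSG00000068758, chr14:14346275-14356011, forward strand) encodes the alpha chain for IL-3, a cytokine widely used to grow myeloid progenitors. Its FPKM was 42.9 and 42.1 in control replicates 3 and 4 and 59.5 and 51.4 in SUV-OE replicates 2 and 3. Both SUV-OE libraries were above both control libraries, at 55.4 ± 5.73 against 42.5 ± 0.561 (SD, n = 2 each). The log2 fold change was 0.37 (standard error 0.13, 95% interval 0.03 to 0.71, limma adjusted p = 0.213). Set against the beta chain in the same library, Il3ra was 1.09 and 1.17 times Csf2rb in control and 1.49 and 1.43 times in SUV-OE, a difference in log2 ratio of 0.36 that separated the groups (exact two-sided permutation p = 0.333). For Csf2ra over Csf2rb the groups overlapped, with FPKM ratios of 5.54 and 4.92 in control against 5.37 and 5.68 in SUV-OE.

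Csf3r (ENSMUSG00000028859, chr4:126024550-126044440, forward strand), the G-CSF receptor that drives granulocyte production, had the smallest adjusted p-value of the 10 genes. Its FPKM was 29.2 and 30.0 in control replicates 3 and 4 and 48.0 and 57.4 in SUV-OE replicates 2 and 3. The groups stood well apart, and the control libraries nearly coincided. The means were 29.6 ± 0.547 and 52.7 ± 6.63 (SD, n = 2 each), a ratio of 1.78. The log2 fold change was 0.80 (standard error 0.14, 95% interval 0.45 to 1.16, limma adjusted p = 0.0784). It was 0.95 after quantile normalization (limma adjusted p = 0.0493) and 0.91 with the recovered reads (limma-voom adjusted p = 0.0145), and so passed in both of these settings. The 14 neutrophil markers were all tested, and 13 were higher in both SUV-OE libraries. Limma passed 3 after adjustment and limma-voom 10. Ltf, Fcnb and Padi4, genes of granule proteins and of histone citrullination, rose with log2 fold changes of 2.95, 2.68 and 1.68 (limma adjusted p = 0.0434, 0.0309 and 0.0262). The part of these markers in the Csf3r difference was not tested.

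The Csf3r start region, at chr4:126024409-126024658 on the forward strand in GRCm38.p6, is shown because the ETS family member PU.1 is a well-known regulator of myeloid receptor genes. Spi1, which encodes PU.1, was not higher in SUV-OE. It was measured at 152 and 113 in control against 112 and 112 in SUV-OE (log2 fold change -0.23, limma adjusted p = 0.54). The window overlaps the Csf3r gene span given above in part. Capitals again mark the ETS core GGAA or its reverse complement TTCC.

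Csf3r: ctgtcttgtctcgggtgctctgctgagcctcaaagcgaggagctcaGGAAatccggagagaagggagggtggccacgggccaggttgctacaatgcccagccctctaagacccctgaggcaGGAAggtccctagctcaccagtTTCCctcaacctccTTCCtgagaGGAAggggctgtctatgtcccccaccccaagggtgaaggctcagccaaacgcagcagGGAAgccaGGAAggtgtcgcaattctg

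This window held 7 ETS cores, as many as or more than which were found in 3.82% of the windows of all genes, and no RUNX match on either strand. It also held no C/EBP motif (the letters TTGCGCAA and also TTGCACAA and also TTGCATCA), which 1.84% of windows held. GATA motifs (TGATAA and also AGATAA), which 16.6% of windows held, and E-box motifs (CACCTG and also CAGCTG), which 27.7% held, were not in it either. Of the 10 receptor genes, 8 had a window in the table, and the 8 held 1 to 7 ETS cores each. Csf3r had the most, so its 3.82% belongs to the highest of 8 counts.

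Il6ra (ENSMUSG00000027947, chr3:89864059-89913196, reverse strand) encodes the ligand-binding chain for IL-6. Its FPKM was 3.91 and 4.44 in control replicates 3 and 4 and 4.17 and 3.82 in SUV-OE replicates 2 and 3. The groups overlapped, with a log2 fold change of -0.05 (standard error 0.13, 95% interval -0.39 to 0.29, limma adjusted p = 0.855). Its signalling partner gp130, encoded by Il6st, was far lower than Il6ra in the control cells, at 0.283 and 0.422, and was measured at 1.37 and 1.35 in SUV-OE. For Il6st the log2 fold change was 0.81 on the log2(FPKM + 1) scale, with a standard error of 0.16 (limma adjusted p = 0.10). With the recovered reads it was 2.07 (limma-voom adjusted p = 0.00617), and so passed in that setting. The FPKM of Il6ra was accordingly 13.9 and 10.5 times that of Il6st in control and 3.06 and 2.82 times in SUV-OE. With 1 added to each FPKM, the log2 ratio differed by -0.85 between the groups (exact two-sided permutation p = 0.333), and by -1.77 at a pseudocount of 0.1.

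Il7r (ENSMUSG00000003882, chr15:9505788-9530176, reverse strand), the IL-7 receptor alpha chain of lymphoid progenitors, T cells and innate lymphoid cells, was the lowest of the 10 genes and had the largest ratio between groups. It had an FPKM of 0.465 and 0.425 in control replicates 3 and 4, from 29 and 23 reads, and of 1.44 and 2.45 in SUV-OE replicates 2 and 3, from 82 and 140 reads. The exact 95% Poisson intervals were 0.311 to 0.667 and 0.269 to 0.638 in control and 1.15 to 1.79 and 2.06 to 2.90 in SUV-OE, which cover counting error only. No control interval reached a SUV-OE interval, and the SUV-OE libraries differed from each other by 1.70 times, more than counting error. The means were 0.445 ± 0.0281 and 1.95 ± 0.717 (SD, n = 2 each), a ratio of 4.38. On the log2(FPKM + 1) scale the difference was 1.01 (standard error 0.22, 95% interval 0.43 to 1.58, limma adjusted p = 0.113). It was 1.87 at a pseudocount of 0.1, which compresses low values less, and 2.15 (standard error 0.39, limma-voom adjusted p = 0.0234) with the recovered reads.

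Markers of B-lymphoid precursors were higher in the same libraries as Il7r. Their summed FPKM over 14 genes was 22.3 and 31.3 in control replicates 3 and 4 and 50.1 and 121 in SUV-OE replicates 2 and 3, so that the library with the most Il7r also had the most of these transcripts. Without Cd79b, the most abundant of them in the mean, the sums were 4.88 and 6.33 in control against 32.9 and 98.0 in SUV-OE. Of 12 tested genes, 10 were higher in both SUV-OE libraries and none reached a limma adjusted p-value under 0.05. Without adjustment 10 did, and limma-voom passed 9 after adjustment. Dntt, which encodes terminal transferase of early lymphocytes, was measured at 0.0725 and 0.390 in control against 6.01 and 19.0 in SUV-OE (log2 fold change 3.28, limma adjusted p = 0.0692). Vpreb1, of the pre-B cell receptor, was measured at 0.277 and 0.745 in control against 6.23 and 19.3 in SUV-OE (log2 fold change 3.02, limma adjusted p = 0.0795). Markers of T, NK and innate lymphoid cells gave sums of 75.9 and 115 in control against 79.1 and 85.4 in SUV-OE, almost wholly from Nkg7, and 4 of these 14 genes had no more than 3 reads in any library. The part of B-lymphoid cells in the Il7r difference was not tested.

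The Il7r start region, at chr15:9529877-9530126 on the reverse strand in GRCm38.p6, is shown beside the others because it differs from them in base composition. This window precedes a RefSeq start but lies wholly inside the gene span given above, so it is not upstream of that span. Capitals mark the ETS core or its reverse complement.

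Il7r: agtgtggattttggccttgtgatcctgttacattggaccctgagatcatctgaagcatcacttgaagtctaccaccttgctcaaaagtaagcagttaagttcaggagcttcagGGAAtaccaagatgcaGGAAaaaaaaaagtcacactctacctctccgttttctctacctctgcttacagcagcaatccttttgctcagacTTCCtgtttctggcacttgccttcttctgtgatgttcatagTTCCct

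It held 4 ETS cores and 1 CpG pair at a GC content of 44.0%, where the Kit window had 17 CpG pairs and a GC content of 70.8%. As few CpG pairs or fewer were found in 18.8% of all windows.

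**Figure D3:**
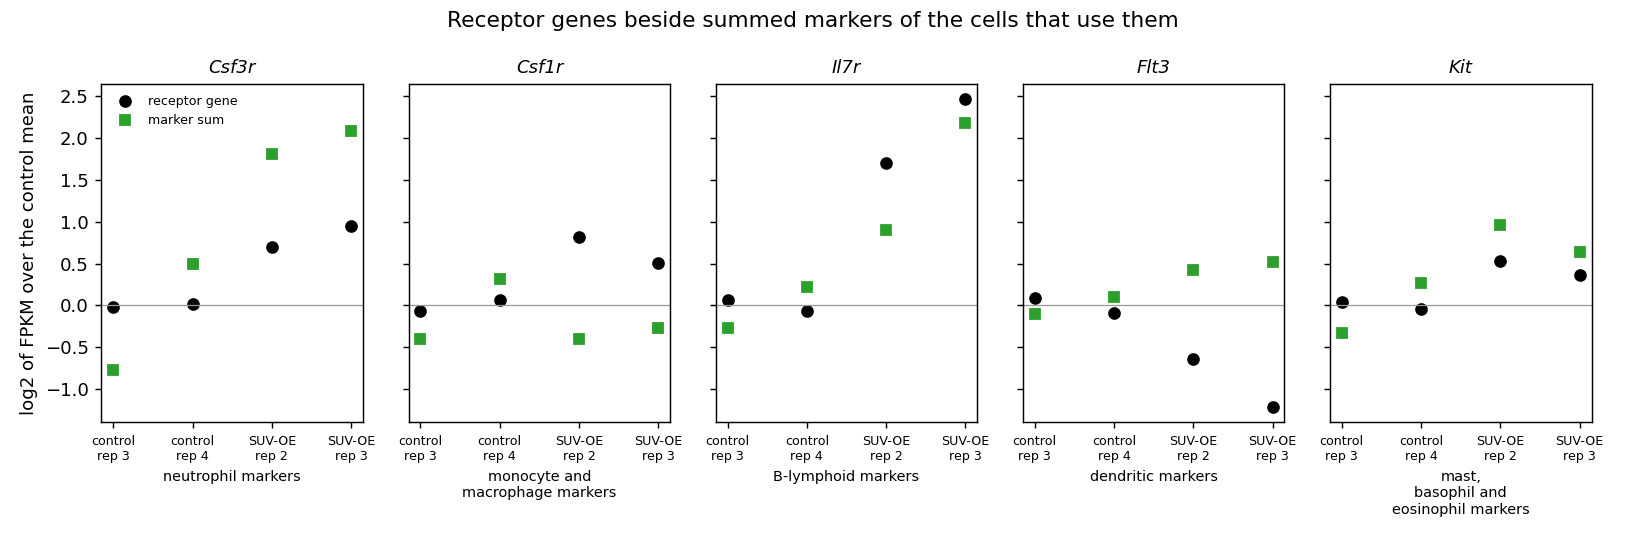
For Csf3r, Csf1r, Il7r, Flt3 and Kit, the log2 of FPKM over the control mean is plotted in each library as circles, with the summed FPKM of markers of a cell type that uses the receptor as squares. The squares are higher in both SUV-OE libraries for the neutrophil, B-lymphoid, dendritic and mast cell lists and overlap between groups for the monocyte list. In SUV-OE, Flt3 lies below 0 while its list lies above, and the monocyte sum, which lies below 0, is mostly Ly6c2 and lies above both control libraries when that gene is left out.

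Of the marker lists plotted beside Flt3 and Kit, the dendritic list summed to 62.6 and 71.8 in control against 90.0 and 96.5 in SUV-OE, while Flt3 was lower there. All 6 of its tested genes had a higher mean in SUV-OE, and 5 were higher in both libraries, against 47% and 25.4% of all tested genes. Siglech, Xcr1, Clec9a, Batf3, Ccr9 and Zbtb46 were below the FPKM filter and not tested, with 0 to 21 reads per library. Irf8 and Cd74, the latter an MHC class II chaperone, passed limma in this list, where 1.29% of all tested genes passed. Without its most abundant gene, Bst2, the list summed to 8.76 and 9.23 in control against 23.8 and 23.0 in SUV-OE. The mast cell, basophil and eosinophil list summed to 107 and 163 in control against 262 and 210 in SUV-OE, in the direction of Kit, with 4 of 7 tested genes higher in both libraries. Without Cpa3 this list summed to 85.6 and 119 in control against 150 and 108 in SUV-OE, and the groups overlapped. Cpa3, a mast cell protease, differed by 1.78 on the log2 scale (limma adjusted p = 0.0951). Markers of the leukemic progenitors themselves had 7 of 13 tested genes higher, a median log2 fold change of 0.05 and 0 genes past a limma adjusted p-value of 0.05, with 1 at an unadjusted p-value under 0.05 and 1 passed by limma-voom after adjustment. Their summed FPKM was 5478 and 6220 in control against 4124 and 4913 in SUV-OE, so that both SUV-OE libraries were lower. The largest differences in this list were those of Ctsg, Itgam and Cd33, with log2 fold changes of -0.95, 0.64 and 0.51 (limma adjusted p = 0.198, 0.258 and 0.263). Without Ctsg the sums were 3241 and 3433 in control against 2897 and 3560 in SUV-OE, and the groups overlapped. In the control libraries the sum with Ctsg was the largest of any marker list, and in the SUV-OE libraries the neutrophil list was larger. The transcripts of myeloid progenitors named by the label were thus present in every library. How much cells of other types added to the level of any receptor was not tested.

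**Figure D4:**
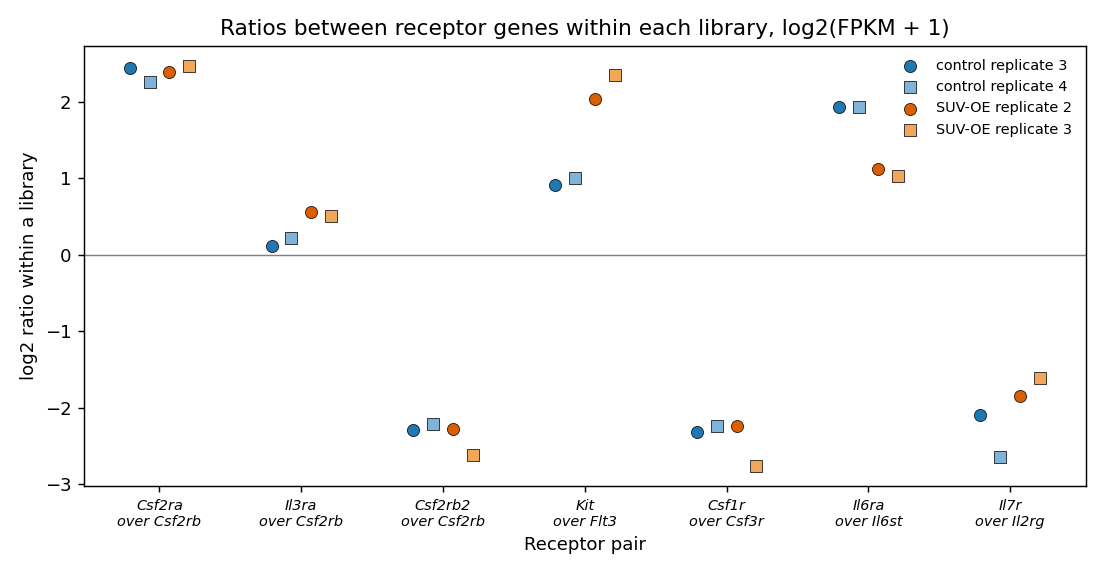
The difference of log2(FPKM + 1) values between the genes of each of the 7 receptor pairs is plotted within each library. Control and SUV-OE libraries have separate symbols, and this difference is the log2 ratio of the text. Kit over Flt3 and Il6ra over Il6st separate the groups most widely, by 1.23 and -0.85, while Csf2ra over Csf2rb, Csf2rb2 over Csf2rb and Csf1r over Csf3r overlap.

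The ligands of these receptors that were in the table had low levels in these cells, with a summed FPKM of 1.02 and 2.03 in control against 3.28 and 3.20 in SUV-OE. Of 11 ligand genes listed, 7 were in the table, and 2 had enough signal for limma, Csf1 and Tslp. Neither passed after adjustment, 1 had an unadjusted p-value under 0.05, and limma-voom passed 1 of 3, Csf1. Csf1, the ligand of Csf1r, was measured at 0.487 and 0.527 in control against 1.27 and 1.28 in SUV-OE, with a log2 fold change of 0.59 (limma adjusted p = 0.147). Kitl, the ligand of Kit, was measured at 0.0713 to 0.215 from 8 to 22 reads, below the FPKM filter, and by limma-voom its adjusted p-value was 0.346. A further 3 of the ligand genes had no more than 3 reads in any library. Kitl was named after its values were seen.

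Of 15 partner and related receptor chains, 8 were tested, 4 were higher and 4 lower in SUV-OE, and none passed limma after adjustment. Without adjustment 2 had a p-value under 0.05, and limma-voom passed 2 of 12 after adjustment. Besides Il6st, the erythropoietin receptor Epor was measured at 0.393 and 0.162 in control against 1.48 and 0.953 in SUV-OE (log2 fold change 0.79, limma adjusted p = 0.152). Il2rg, the common gamma chain that pairs with Il7r, was measured at 5.30 and 7.92 in control against 7.77 and 9.57 in SUV-OE, and its groups overlapped. Il7r over Il2rg differed by 0.65 on the log2 scale and separated the groups (exact two-sided permutation p = 0.333). That difference was 1.46 at a pseudocount of 0.1 and 0.38 without control replicate 4.

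Downstream of the receptors, 10 of the 11 JAK and STAT genes were higher and 1 was lower, the median log2 fold change was 0.12 and none reached a limma adjusted p-value under 0.05. Without adjustment 2 did, and limma-voom passed 2 after adjustment. Stat4 and Stat5b had log2 fold changes of 0.70 and 0.45 (limma adjusted p = 0.148 and 0.266). Of 24 adaptor and kinase genes, 15 were higher and 9 lower, and 1 passed limma after adjustment, with 6 at an unadjusted p-value under 0.05 and 2 passed by limma-voom. The gene that passed limma was Fgr, a Src-family kinase of myeloid cells, which rose from 2.93 and 2.70 to 6.36 and 6.65 (log2 fold change 0.98, standard error 0.12, limma adjusted p = 0.0471). Of 22 negative regulators 21 were tested, and 16 were higher and 5 lower, with none past limma after adjustment. An unadjusted p-value under 0.05 was found for 4, near the share of 20.7% over all tested genes. By limma-voom 4 of the 22 passed after adjustment, against 7.12% of its genes. Dusp6, Spred2 and Spred1, which restrain the MAP kinase pathway below Kit and Flt3, had log2 fold changes of 1.54, 0.97 and 0.94 (limma adjusted p = 0.0951, 0.0930 and 0.0576).

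Of 12 genes known as targets of STAT5, the factor that IL-3 and GM-CSF activate, 10 were tested, 5 were higher and 5 lower, and the median log2 fold change was -0.0039. Ccnd2, a D-type cyclin, was the gene of this list that passed limma, and it rose from 0.792 and 1.02 to 4.62 and 4.45 (log2 fold change 1.54, standard error 0.14, limma adjusted p = 0.0284). Without adjustment 2 of the list had a limma p-value under 0.05, and limma-voom passed 3 of 12 after adjustment, Ccnd2, Pim1 and Socs2. Pim1 had a log2 fold change of 0.95 by limma (adjusted p = 0.0646). Cish and Socs2, the classical feedback targets, were below the FPKM filter. Socs2 was measured at 0.0324 and 0.0684 in control against 0.242 and 0.449 in SUV-OE, from 6 and 11 against 41 and 76 reads (limma-voom adjusted p = 0.0292). Cish was measured at 0.136 and 0.129 in control against 0.219 and 0.351 in SUV-OE (limma-voom adjusted p = 0.166). Pim1, Socs2 and Cish were named after their values were seen. All 6 sheddases, proteases that release receptor ectodomains such as that of Csf1r, were higher in both SUV-OE libraries, where 25.4% of all tested genes were, with a median log2 fold change of 0.42. None of them passed limma after adjustment, while 3 had an unadjusted p-value under 0.05 and limma-voom passed 3 after adjustment. The largest difference was that of Mmp9, at 1.49 (limma adjusted p = 0.101).

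Among 15 transcription factor genes that regulate these receptors, 7 were higher and 8 lower, and 2 passed limma after adjustment. Without adjustment 6 had a p-value under 0.05, and limma-voom passed 6 after adjustment. Tal1, a partner of GATA factors at Kit, rose from 0.20 and 0.271 to 2.54 and 2.23 (log2 fold change 1.45, standard error 0.16, limma adjusted p = 0.0405). Irf8, a factor of monocyte and dendritic cell development, rose from 5.22 and 5.01 to 11.6 and 11 (log2 fold change 1.01, standard error 0.11, limma adjusted p = 0.0405). Irf8 is also among the dendritic markers above.

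**Figure D5:**
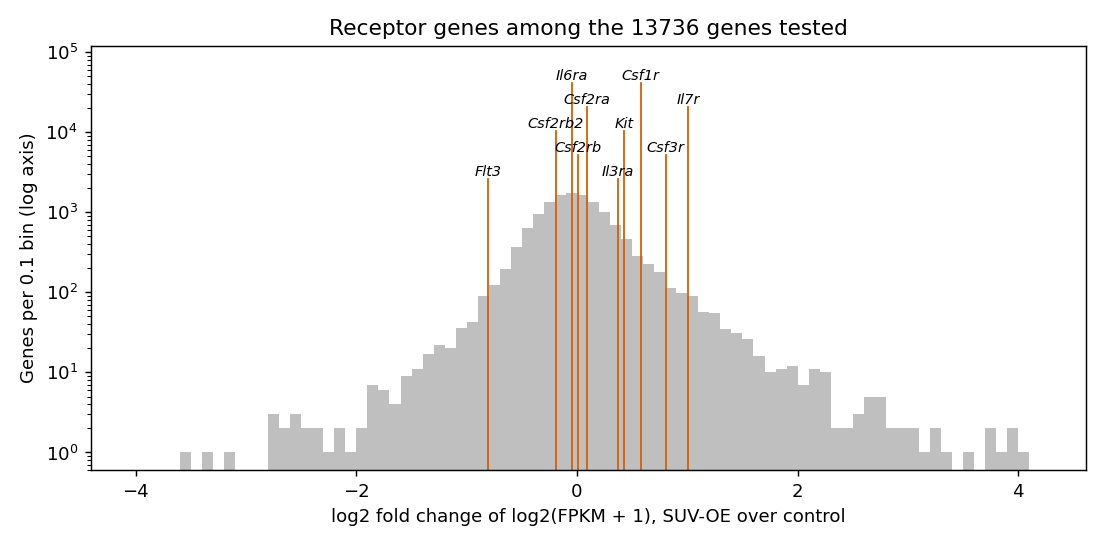
The distribution of the log2 fold change of log2(FPKM + 1), SUV-OE over control, is plotted for all 13736 tested genes (number per bin on a log axis), with a line for each receptor gene. The median of all genes is -0.02, Il7r at 1.01 has an absolute change matched or passed by 4.02% of the tested genes, and Flt3 at -0.81 by 6.41%.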

How the data were processed

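RNA-Seq of c-Kit+ leukemic cells covered 2 control and 2 SUV-OE libraries, labelled as batch 2. According to the labels and the methods, the authors made TruSeq libraries, sequenced them as paired ends, aligned them to mm10 with TopHat2 (CASAVA 1.8 is also in the submitters' processing notes) and deposited 1 FPKM value per gene and library. The methods name Cufflinks for the FPKM. Strand and annotation release are not given in the sources used here. The authors called differential expression with a count model, and the deposited unit was FPKM, so a log-scale test was used.

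The groups were compared by limma 3.58.1 (R 4.3.3) on log2(FPKM + 1) with an intensity trend. The 13736 genes whose mean FPKM reached 0.5 were tested, and p-values were adjusted by the Benjamini-Hochberg method over them. Differential expression needed an adjusted p-value under 0.05 together with a log2 fold change of 1 or more in size. Reads were recovered from the FPKM steps. For 78.5% of genes all values were whole within 0.01 at the GENCODE M21 exon length, and for others the smallest length giving whole reads was taken, so their reads could be a multiple of those given. Recovered reads were used for limma-voom (mean of at least 10 reads) and counting intervals. Of the 10 receptors, 4 were whole at the M21 length. Within-library ratios were tested by exact permutation with scipy 1.17.1. Promoter windows came from RefSeq, and gene positions and coding sequences from GENCODE M21. The fit was also run on simulated data, and the outcome of that run is not reported here.

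The genes, gene lists and tests were chosen with earlier results of these data known. The genes named from a list are those with a limma adjusted p-value under 0.05 and otherwise the 3 with the largest absolute log2 fold change, and not all of them are reported. Alternatives were another pseudocount, other filters and scalings, other variance trends, limma-voom, leaving out each library, and Csf2rb summed with Csf2rb2.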

Additional observations from a re-analysis of the deposited data

How the results depend on the processing

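The direction was the same under every alternative for 6 receptor genes (Kit, Flt3, Csf1r, Csf3r, Il3ra and Il7r), whose groups do not overlap, so that leaving out a library could not turn it. The other 4 had log2 fold changes near 0 that turned sign in 9 values. Leaving out a library gave -0.066 to 0.24 for Csf2ra, -0.069 to 0.083 for Csf2rb, -0.44 to 0.057 for Csf2rb2 and -0.12 to 0.023 for Il6ra. Csf2rb was also -0.0052 with median-of-ratios scaling and -0.025 when summed with Csf2rb2, and Il6ra was 0.027 by limma-voom.

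No receptor gene had a limma adjusted p-value under 0.05 in the reported fit. Quantile normalization gave 1 (Csf3r, 0.95) and limma-voom 3 (Csf1r 0.75, Csf3r 0.91 and Il7r 2.15). Over all genes, the reported fit called 168 differentially expressed, limma-voom 751, and an adjusted p-value under 0.1 gave 342. Without a filter on low values limma called 0 of 23552 genes, with 4177 at an unadjusted p-value under 0.05. Leaving out a library gave 0 to 0, with 1166 to 3877 genes at an unadjusted p-value under 0.05. There the lone library of a group was assumed to vary like the others. The cause of these differences in number was not tested. Of 35 ratio values, 2 moved by more than the replicate spread, both at a pseudocount of 0.1, where Il6ra over Il6st was -1.77 and Il7r over Il2rg 1.46.

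No paired analysis was possible because control and SUV-OE have only the replicate number 3 in common. The depth limits Il7r most, at 23 to 140 reads.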
